A study of Mus musculus with 13 samples.

Results

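The NF-κB family was described through 10 genes in the transcriptomes of mouse HSPCs with mutant p53, oncogenic NRAS, both or neither. The genes were taken as a named list from a count table of 54838 genes, and all 10 were found in it. They comprised the 5 subunits Rela, Relb, Rel, Nfkb1 and Nfkb2 and 5 inhibitors or atypical regulators, Nfkbia, Nfkbib, Nfkbie, Nfkbiz and Tnfaip3. RNA came from 50000 sorted Lin- cKit+ bone marrow cells per mouse of 13 C57BL/6J mice, a population depleted of mature lineages and enriched for stem and progenitor cells. All mice carried Mx1-Cre, a recombinase driven by an interferon-inducible promoter. Control mice (n = 3) had no further allele, p53mut mice (n = 3) were p53 R172H/+, NrasG12D mice (n = 3) were Nras G12D/+, and NPmut mice (n = 4) carried both. The genotype field of the NrasG12D libraries spells the allele G21D, where their titles and the NPmut genotype have G12D. The mutant alleles sat at their own loci behind a stop cassette that Cre removes. In control and single-mutant mice Cre had been induced from about 6 weeks of age with pI-pC, an interferon-inducing double-stranded RNA, in 3 doses of 100 μg. The titles of their libraries and the study call these mice age-matched to the NPmut mice. NPmut mice had not been injected, carried recombined alleles nonetheless, which the study put down to probable leaky expression of Cre, and were moribund, so genotype, injections and disease stage cannot be told apart in any comparison with NPmut.

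NF-κB transcription factors are dimers of 5 subunits, which IκB proteins hold in the cytoplasm until a kinase complex marks the inhibitor for degradation. The released dimers switch on inflammatory and survival genes, among them the genes of several of their own inhibitors, so that a signal also raises the feedback that ends it. In bone marrow the pathway acts in myeloid output and in the response of progenitors to infection.

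Between 12576174 and 29124022 reads per mouse were counted on genes. Levels are given as CPM, the usual library-size-scaled counts with trimmed mean of M-values (TMM) factors, and as RPKM where genes of different length were compared. All 13 libraries entered a single fit, and a gene was called at an adjusted p under 0.05 in edgeR's quasi-likelihood test with Benjamini-Hochberg adjustment over the 17795 genes that passed the filter on low counts. All 10 members passed it. DEGs also had a fold change of at least 2. The libraries carried the markers of the sorted fraction, with Kit, which encodes the receptor used in the sort, at 539.8 ± 31.7 CPM (SD, n = 3) in control and lower in NPmut mice at 371.7 CPM (log2 fold change -0.54, adjusted p = 0.0322). Gene counts do not separate mutant from WT transcripts, and Nras (50.4 to 65.8 CPM) and Trp53 (78.0 to 128.5 CPM) therefore did not test the labels.

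The region before the start of transcription was read for the members because binding of NF-κB there is the textbook route of its feedback. RefSeq windows on GRCm38.p6, from 250 bases before to 50 after the start, were at hand for 7 members and not for Relb, Nfkb1 and Nfkbiz. The κB consensus, the 10-letter motif bound by NF-κB dimers, was searched on both strands, and overlapping matches were joined. The 7 members had 10 windows, as Nfkb2 had 3, of which 2 overlapped, and Tnfaip3 had 2. The consensus was in 7 of the 10 windows, those of Rel, Nfkb2, Nfkbia and Nfkbie and 1 of Tnfaip3. It was in neither that of Rela nor that of Nfkbib. Of all 32851 windows of this length, 8.46% held it. By member it was found for 5 of the 7. The 2 overlapping windows of Nfkb2 share 1 match, which counts in both windows. The looser motif GGGNNNNNCC, which every match of the consensus also fits, was in 9 of the 10, all but that of Nfkbib, against 50.8% of all windows. Below are the 150 bases before the start of 4 members with the consensus and of Rela without it, 5′ to 3′ on the gene's strand, with matches in capitals.
Nfkbia (chr12:55492648-55492797, - strand): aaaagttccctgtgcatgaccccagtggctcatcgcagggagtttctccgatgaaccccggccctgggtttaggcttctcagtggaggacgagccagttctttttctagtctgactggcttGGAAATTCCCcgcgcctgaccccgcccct
Tnfaip3 (chr10:19015411-19015560, - strand): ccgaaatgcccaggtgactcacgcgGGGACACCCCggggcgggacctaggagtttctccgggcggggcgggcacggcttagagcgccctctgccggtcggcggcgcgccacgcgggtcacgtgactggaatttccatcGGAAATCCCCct
Rel (chr11:23770970-23771119, - strand): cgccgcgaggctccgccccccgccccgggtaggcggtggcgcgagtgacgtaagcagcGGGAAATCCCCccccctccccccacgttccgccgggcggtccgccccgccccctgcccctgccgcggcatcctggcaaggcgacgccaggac
Nfkbie (chr17:45555550-45555699, + strand): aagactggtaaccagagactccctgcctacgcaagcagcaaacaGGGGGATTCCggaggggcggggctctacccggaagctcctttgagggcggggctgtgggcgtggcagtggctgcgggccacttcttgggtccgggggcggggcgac
Rela (chr19:5637391-5637540, + strand): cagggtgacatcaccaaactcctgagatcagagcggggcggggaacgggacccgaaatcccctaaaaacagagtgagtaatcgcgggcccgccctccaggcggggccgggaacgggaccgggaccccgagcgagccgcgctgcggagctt
With the start counted as 0, the match in Nfkbia lay at -29 to -20 and that in Rel, a pair of overlapping matches, at -92 to -82. Nfkbie held its match at -106 to -97, and Tnfaip3 had separate matches at -125 to -116 and -12 to -3. The starts are those of RefSeq. In GENCODE, which gave the gene coordinates printed below, the stretch of Tnfaip3 lies inside the gene. That of Rela reaches into its gene, and that of Rel does so at its edge. A match describes letters in these windows and was not measured as a bound site.

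NPmut HSPCs had higher mRNA of 6 of the 10 members than control HSPCs, and 0 members were called lower. Nfkbia, Tnfaip3 and Nfkbiz, listed here as inhibitors or atypical regulators, rose about 4-fold. The subunits Relb and Rel rose by 1.51 and 1.11 on the log2 scale and the inhibitor Nfkbie by 0.86. Of all genes tested, 5.38% were called higher in this comparison. Of the members, 5 were also DEGs, against 2.32% of all genes that were DEGs and higher. All 10 members had positive log2 fold changes (51.3% of all genes) and an unadjusted p under 0.05 (25.6% of all genes), and their median log2 fold change was 0.99 beside 0.01 over all genes. In bulk samples, more cells of a type with high levels and more mRNA per cell cannot be told apart. The plot of levels by mouse shows the 10 genes in the 4 genotypes.

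**Figure D1:**
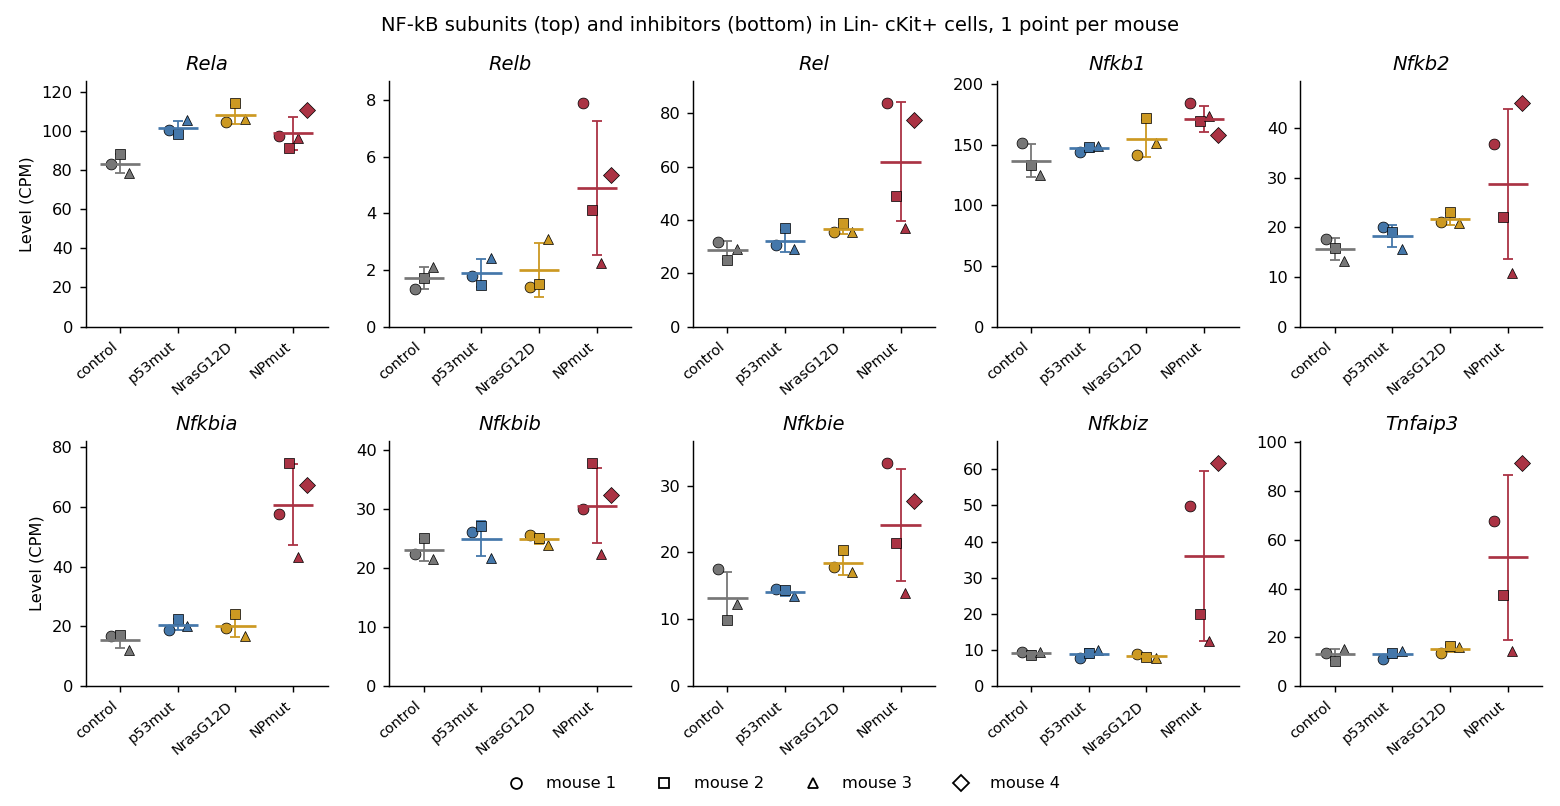
Level of the 10 members in CPM (y axis, linear, from 0) in the mice of the 4 groups (x axis), with 1 point per mouse, a line at the group mean and a bar of 1 SD; marker shapes give the mouse number within its group. The 4 NPmut mice lie above all other mice for Nfkbia and Nfkbiz, and NPmut mouse 3 is the lowest NPmut mouse for 8 of the 10 genes.

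Nfkbia (ENSMUSG00000021025, chr12:55489410-55492647, - strand) encodes IκBα, the inhibitor that NF-κB itself induces to shut down the response. It was at 16.6, 16.99 and 12.2 CPM in the control, 18.8, 22.6 and 20.2 in the p53mut, 19.3, 23.98 and 16.8 in the NrasG12D and 57.6, 74.7, 43.3 and 67.3 in the NPmut mice. Every NPmut mouse was above every mouse of the other groups. The log2 fold change of NPmut against control was 1.99 ± 0.20 (SE, adjusted p = 6.77e-05), and it was called in all 20 alternative fits, with log2 fold changes of 1.85 to 2.12 in the 13 that left out a mouse. The gene had 239 to 1936 counts per library.

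Tnfaip3 (ENSMUSG00000019850, chr10:19000910-19015657, - strand) encodes A20, a ubiquitin-editing enzyme that restrains signaling upstream of the kinase complex. Its levels were 13.5, 10.4 and 15.0 CPM in control mice, 11.1 to 14.5 in p53mut, 13.8 to 16.4 in NrasG12D, and 67.6, 37.4, 14.6 and 91.6 in NPmut mice. Of the NPmut mice, 1, 2 and 4 were above all others, and mouse 3 was within the control range. The log2 fold change against control was 2.02 ± 0.46 (adjusted p = 0.0162), and the call was lost without control mouse 1, 2 or 3 (adjusted p = 0.0565, 0.0685 and 0.0600), without a filter on low counts (0.0507) and in a fit of control and NPmut mice alone (0.0568). The SD of log2 CPM over the NPmut mice was 1.16, larger than in all but 4.66% of the genes tested, and 0.27 over the control mice.

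Nfkbiz (ENSMUSG00000035356, chr16:55811375-55838899, - strand) encodes IκBζ, an atypical nuclear family member that acts on NF-κB at secondary response genes. It was at 9.54, 8.71 and 9.33 CPM in control mice, 7.68 to 10.02 in p53mut, 7.70 to 8.97 in NrasG12D, and 49.9, 19.9, 12.4 and 61.8 in NPmut mice. The NPmut mice were all above the other groups, mouse 3 by a small margin. The log2 fold change against control was 1.96 ± 0.43 (adjusted p = 0.0128), and the call was lost without control mouse 2 or 3 (adjusted p = 0.0505 and 0.0587) and in a fit of control and NPmut mice alone (0.0550).

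The remaining cytoplasmic inhibitors had smaller fold changes. Nfkbie (ENSMUSG00000023947, chr17:45555703-45563169, + strand), which encodes IκBε, was at 17.5, 9.95 and 12.3 CPM in control and 33.4, 21.4, 13.9 and 27.7 in NPmut mice. Mouse 3 again fell within the control range. The log2 fold change was 0.86 ± 0.25 (adjusted p = 0.0396), and the call held in 8 of 20 alternatives. It was lost in the fits without control mouse 2 or 3, p53mut mouse 1 or 3, any NrasG12D mouse, or NPmut mouse 1 or 4, and with library totals, with at least 10 counts in every library or with only the compared groups, where the adjusted p was 0.0501 to 0.157. Nfkbib, which encodes IκBβ, overlapped between the groups, at 21.5 to 25.1 CPM in control and 22.3 to 37.8 in NPmut mice, and was not called (log2 fold change 0.41 ± 0.16, adjusted p = 0.111). Without NPmut mouse 3 it was called, at 0.54 (adjusted p = 0.0196). Nfkbib overlaps Sirt2 and Ccer2 on the opposite strand, and the strand setting of the counting is not given in the sources used here, so its counts are uncertain.

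Among the subunits, the 3 with a transactivation domain, Rela, Relb and Rel, had log2 fold changes of 0.25, 1.51 and 1.11 in NPmut against control mice. Rel (ENSMUSG00000020275, chr11:23736847-23770970, - strand) encodes c-Rel, the subunit best known from lymphoid and myeloid activation. It was at 31.6, 24.9 and 29.2 CPM in control, 30.5, 36.9 and 28.9 in p53mut, 35.5, 38.7 and 35.5 in NrasG12D and 83.7, 49.0, 37.0 and 77.5 in NPmut mice. The NPmut mice were above all control mice, with mouse 3 inside the range of the NrasG12D mice. The log2 fold change against control was 1.11 ± 0.23 (adjusted p = 0.00717) and was called in all 20 alternatives.

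Relb (ENSMUSG00000002983, chr7:19606217-19629438, - strand), the partner of p52 in the noncanonical pathway, was the least abundant member. It had 20 to 48 counts in the libraries of the other groups and 156, 107, 42 and 63 in those of the NPmut mice. In CPM Relb was at 1.32, 1.73 and 2.09 in control and 7.88, 4.13, 2.25 and 5.34 in NPmut mice, with no overlap. The p53mut mice were at 1.47 to 2.43 and the NrasG12D mice at 1.39 to 3.11, and NPmut mouse 3 lay within both ranges. The log2 fold change of NPmut against control was 1.51 ± 0.42 (adjusted p = 0.0333). The call rests on each of 4 mice, as it was lost without control mouse 1, 2 or 3 (adjusted p = 0.12, 0.0961 and 0.0773) or NPmut mouse 1 (0.101). It was also lost with library totals (0.0511) and in a fit of control and NPmut mice alone (0.0760). Reads on 1733 olfactory and vomeronasal receptor genes, used as a measure of background, came per length to at most 7.86% of the level of Relb in a library and to at most 2.42% for any other member.

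Nfkb2 and Nfkb1 encode p100 and p105, precursors of the DNA-binding subunits p52 and p50. Nfkb2 was at 17.8, 15.9 and 13.3 CPM in control and 36.9, 22.2, 10.9 and 45.0 in NPmut mice, so that 3 NPmut mice were above and mouse 3 below every control mouse. The p53mut mice were at 15.7 to 20.1 CPM and the NrasG12D mice at 20.9 to 23.1. Nfkb2 was not called in NPmut against control mice (log2 fold change 0.87 ± 0.34, adjusted p = 0.127). It was called without NPmut mouse 3, at 1.14 (adjusted p = 0.00419), and without a filter on low counts (0.000255). Nfkb1 was at 151.6, 133.0 and 125.3 CPM in control and 184.0, 169.6, 173.5 and 157.9 in NPmut mice, without overlap. The p53mut mice were at 143.5 to 148.9 CPM, and the NrasG12D mice, at 141.2 to 171.6, overlapped the NPmut mice. The log2 fold change of Nfkb1 in NPmut against control mice, 0.33 ± 0.10, was just outside the threshold (adjusted p = 0.0514). It was called in 5 of 20 alternatives, among them DESeq2 (adjusted p = 0.0230) and the fits without control mouse 1 (0.0424) or NPmut mouse 2 or 4 (0.0345 and 0.0384). Both genes overlap an annotated gene, Nfkb2 with Psd on the opposite strand and Nfkb1 with Gm43430 on its own, and their counts are uncertain to that extent.

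Rela (ENSMUSG00000024927, chr19:5637483-5648130, + strand), which encodes p65, the main activating subunit, had another order of groups. It was at 83.3, 88.1 and 78.8 CPM in control, 100.4, 98.4 and 105.7 in p53mut, 104.9, 114.2 and 106.2 in NrasG12D and 97.6, 91.1, 96.3 and 111.0 in NPmut mice. Each mutant mouse was above each control mouse, and the highest group mean was that of the NrasG12D mice. No difference from control was called: the log2 fold changes were 0.38 ± 0.10 in NrasG12D (adjusted p = 0.210), 0.28 ± 0.10 in p53mut (adjusted p = 1.00) and 0.25 ± 0.09 in NPmut mice (adjusted p = 0.109). These 3 comparisons share the control mice. The NrasG12D difference was called with DESeq2 and in a fit of the compared groups alone (adjusted p = 0.0415 and 0.0462), and without NPmut mouse 2 so was the NPmut difference (0.0386).

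The single mutants had no called member in edgeR's test, and DESeq2 called 1, Rela, in NrasG12D and 0 in p53mut mice. In NrasG12D against control mice, where 0.00562% of all genes were called, 9 of 10 members had positive log2 fold changes (48.2% of all genes) and 1, Rela, an unadjusted p under 0.05 (9.23%), with a median of 0.30 beside -0.01 over all genes. Rela, Rel and Nfkb2 were above all control mice in all NrasG12D mice, as were 10.9% of genes. In p53mut against control mice, where 0.0% of genes were called, 9 of 10 were positive (50.3% of all genes), with a median of 0.13 beside 0.00, and Rela and Nfkbia had an unadjusted p under 0.05 (2.33%). Both were above all control mice in all p53mut mice, as were 5.47% of genes. The plot of log2 fold changes sets the 3 comparisons side by side.

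**Figure D2:**
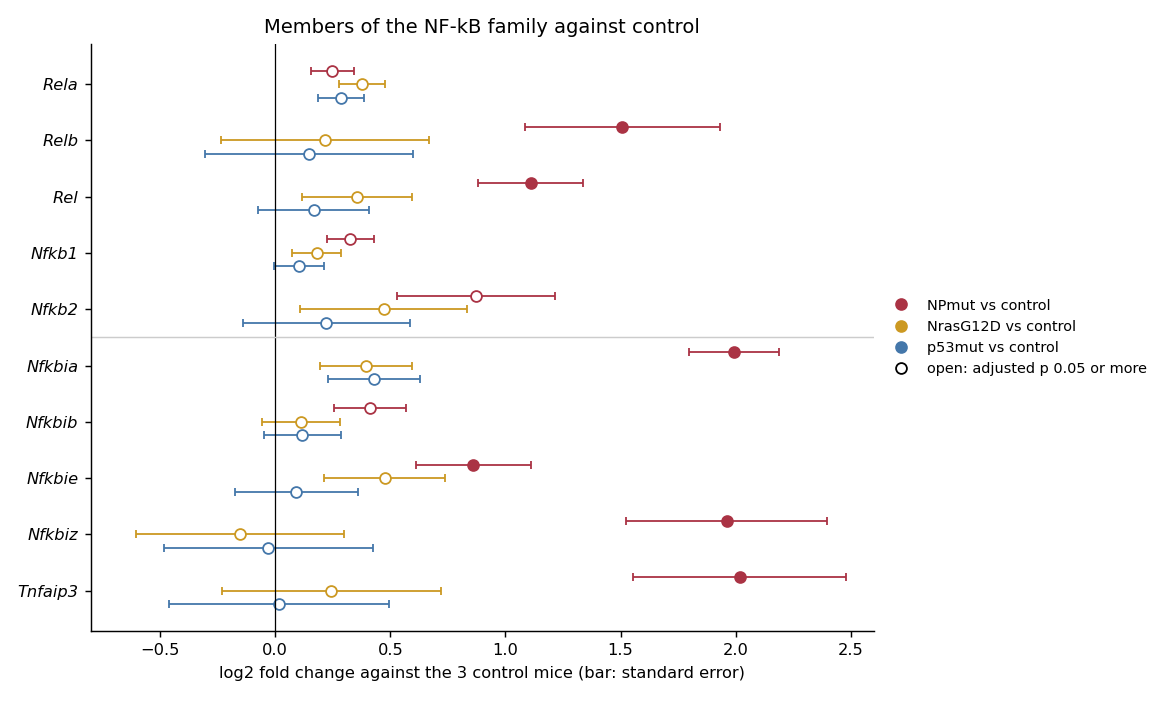
log2 fold change against the 3 control mice (x axis, with a bar of 1 SE on each side) of the 10 members (y axis) for NPmut, NrasG12D and p53mut mice; filled points passed an adjusted p of 0.05. Filled points occur for NPmut mice alone, at 6 genes, and the 3 comparisons use the same control mice.

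NPmut mice were also set against each single mutant. Against NrasG12D mice 3 members were called, all higher (3.92% of all genes were called higher), Nfkbia by 1.60 ± 0.19 on the log2 scale (adjusted p = 0.00026), Nfkbiz by 2.11 ± 0.44 (adjusted p = 0.0107) and Tnfaip3 by 1.77 ± 0.46 (adjusted p = 0.0319). Against p53mut mice the same 3 and Rel were called higher (4.81% of all genes), with log2 fold changes of 1.56 ± 0.19 for Nfkbia, 1.99 ± 0.44 for Nfkbiz, 2.00 ± 0.46 for Tnfaip3 and 0.94 ± 0.23 for Rel (adjusted p = 0.00033, 0.0127, 0.0180 and 0.0176). The Nfkbia calls held in every alternative, and those of Nfkbiz were lost without NrasG12D mouse 2 (adjusted p = 0.0534) or p53mut mouse 1 or 3 (0.0648 and 0.0584). Tnfaip3 against NrasG12D was lost without any single NrasG12D mouse or without NPmut mouse 1, 2 or 4 (0.0528 to 0.127). Against p53mut, Tnfaip3 and Rel were lost without p53mut mouse 1 or 3 (0.0773 to 0.0823 and 0.0824 to 0.104). With only the compared groups in the fit, all of these calls except those of Nfkbia were lost. Both Tnfaip3 calls were also lost without a filter on low counts. In NrasG12D against p53mut mice, 0 members were called (0.0% of all genes) and 0 had an unadjusted p under 0.05 (4.84%), and DESeq2 called 0.

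The interaction term asks whether the change in NPmut mice exceeds the sum of the single-mutant changes on the log2 scale. It was called for 1 member, Nfkbia, at 1.17 ± 0.27 (adjusted p = 0.0464, 0.506% of all genes called higher). That call was kept in 9 of 19 alternatives and lost without any single control or NrasG12D mouse, p53mut mouse 1 or 3, or NPmut mouse 1 or 4 (adjusted p = 0.0523 to 0.133). The term was 2.14 ± 0.62 for Nfkbiz (adjusted p = 0.104) and 1.76 ± 0.66 for Tnfaip3 (adjusted p = 0.210), neither called, and without NPmut mouse 3 both were called, at 2.43 (adjusted p = 0.00896) and 2.07 (adjusted p = 0.0088). For Rela it was negative, at -0.42 ± 0.14, and not called (adjusted p = 0.139).

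NPmut mouse 3 lay low for much of the family, but Dixon's outlier test for 4 values gave 0 flags in 10 tests. It was the lowest NPmut mouse for 8 of the 10 members, where it was the lowest for 18.2% of all genes, and all but Rela and Nfkb1 were among the 8. Nfkb2, Nfkbib, Nfkbie and Tnfaip3 were above all control mice in mice 1, 2 and 4 and not in mouse 3, a pattern of 3.07% of all genes, and the other 6 members were above all control mice in all 4 (10.4% of all genes). Relative to the control mean, Tnfaip3 was 5.21, 2.88 and 7.06 times as high in mice 1, 2 and 4 and 1.124 times in mouse 3, and Nfkbiz was 5.43, 2.17 and 6.72 times and 1.35 times. Nfkbia was 3.78, 4.89 and 4.41 times as high in mice 1, 2 and 4 and still 2.84 times in mouse 3. Without mouse 3, 8 members were called against control, and without mouse 2 the count was also 8. It was 4 without mouse 1 and 6 without mouse 4.

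A list of 17 immediate-early genes, which cells induce within minutes of many stimuli, moved with this split. Its summed level was 353.4 to 402.1 CPM in control and 1379, 1124, 317.5 and 2130 CPM in NPmut mice 1 to 4, so that mouse 3 was below every control mouse. In NPmut against control mice 9 of the 17 were called higher and 0 lower (5.38% and 5.54% of all genes). The pattern of mice 1, 2 and 4 above control and mouse 3 not was seen for 12 of the 17 (3.07% of all genes). Mouse 3 was the lowest NPmut mouse for all 17 (18.2% of all genes). Fos, for example, was at 19.5 ± 3.91 CPM in control and 186.1, 218.5, 14.6 and 392.4 in NPmut mice. The part of these genes in the result was not tested.

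Of the 11 markers of monocytes and macrophages tested, Cd14 alone had that pattern (3.07% of all genes). It was at 15.5, 21.2, 0.590 and 8.06 CPM in NPmut mice and 1.83 ± 0.27 in control. Another 7 were above all control mice in all 4 NPmut mice (10.4% of all genes), and mouse 3 was the lowest NPmut mouse for 5 of the 11 (18.2%). Of the 11 tested, 5 were called higher and 0 lower (5.38% and 5.54% of all genes). The summed level of the 12 listed genes was 550.7 to 636.7 CPM in control and 1690, 2192, 1526 and 1369 in NPmut mice 1 to 4. F13a1, which encodes a coagulation factor subunit, made up most of this sum (1011, 1188, 1027 and 902.8 CPM in NPmut mice), and without it the sum was 229.2 to 247.7 CPM in control and 679.1, 1004, 498.9 and 466 in NPmut mice. Csf1r, the receptor for the macrophage growth factor, was at 54.8 ± 4.88 CPM in control and at 180.1, 184.1, 128.8 and 120.7 in NPmut mice. Of the other lists, 1 of 12 neutrophil, 3 of 8 dendritic cell, 1 of 7 mast cell and basophil, and 1 of 5 stromal and endothelial markers tested were called higher, and 1, 1 and 3 of the last 3 lists lower. The 1 of 12 for neutrophil markers is near the 5.38% of all genes called higher. Of the HSPC markers 1 of 7 was called higher and 3 lower, all 5 megakaryocyte markers and 2 of 10 erythroid markers were lower, and 0 of 5 B lymphoid and 0 of 4 T and NK lymphoid markers were called (2 and 1 at an unadjusted p under 0.05, 1 and 0 called by DESeq2). The part of a shift in cell types in the members' levels was not tested.

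**Figure D3:**
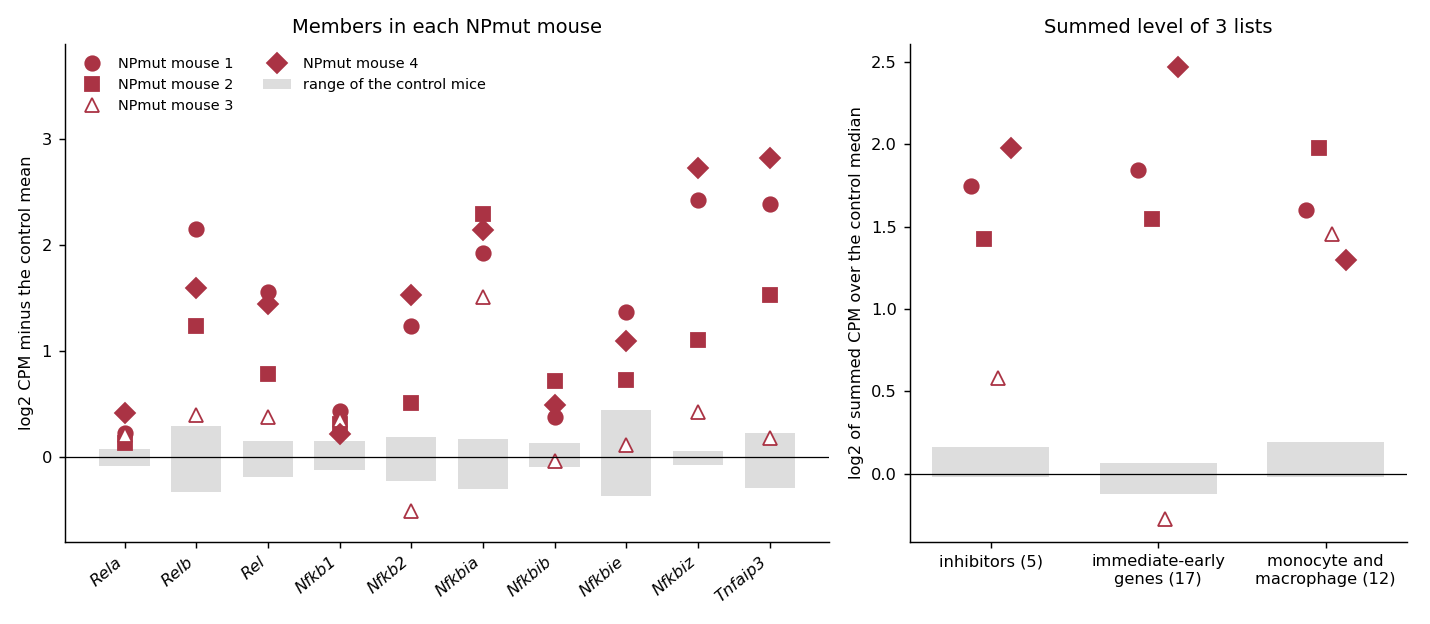
Left, log2 CPM of each member minus its mean in control mice (y axis) for the 4 NPmut mice, over the range of the control mice in grey; right, log2 of the summed CPM of 3 gene lists over the control median. The open triangles of mouse 3 lie low for most members and below the grey range for the immediate-early genes (317.5 CPM), but among the other NPmut mice for Nfkb1 and the monocyte and macrophage markers (1526 CPM).

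With all annotated exons of a gene as its length (3072 bases for Rela, 12061 for Nfkb1), Rela was the most abundant subunit per length in every group. In control mice it made up 58.8% ± 2.37 (SD, n = 3) of the summed RPKM of the 5 subunits, Nfkb1 24.5% ± 1.40, Rel 8.30% ± 1.05, Nfkb2 7.37% ± 0.69 and Relb 0.96% ± 0.27. In NPmut mice Rela was at 52.2% ± 4.93 and Rel at 13% ± 3.17 (n = 4), with Rela shares of 46.5%, 52.8%, 58.4% and 51.1% in mice 1 to 4. The Rel share was above every control mouse in all 4 NPmut mice, in mouse 3 by a small margin (9.24% beside at most 9.02%). The Rela share of mouse 3 lay within the control range. The ranking depended on length. In CPM, without length, Nfkb1 was the largest subunit, at 51.3% in control and 47.3% in NPmut mice. Rela was at 31.4% and 27.3%. The Rel share of mouse 3 in CPM, 11.6%, lay within the control range of 9.44% to 11.7%.

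In NPmut mice the summed mRNA of the 5 inhibitors or atypical regulators was higher relative to that of the subunits than in the other mice. This is a description without a test. The sum includes Nfkbiz and Tnfaip3 and is called that of the inhibitors for short. The summed RPKM of the inhibitors was 30.2, 28.6 and 25.5 in control and 79.9, 80.0, 46.2 and 90.8 in NPmut mice, and that of the subunits was 48.2, 47.0 and 43.4 against 68.3, 56.2, 53.6 and 70.8. The ratio of inhibitors to subunits was 0.607 ± 0.020 in control, 0.602 ± 0.043 in p53mut and 0.579 ± 0.036 in NrasG12D mice, and 1.17, 1.42, 0.862 and 1.28 in NPmut mice, all above the other 9. Nfkbia made up 33.6% ± 3.65 of the inhibitor sum in control and 51.8% ± 7.32 in NPmut mice, whereas Nfkbib went from 37.9% ± 3.25 to 19.4% ± 3.02. In CPM, without length, the Nfkbia share was 20.69% in control and 31.96% in NPmut mice. On that scale NPmut mice 1 and 4, at 24.16% and 23.96%, were barely above the highest control mouse, at 23.87%. Mice 2 and 3 were at 39.07% and 40.63%. These are shares of mRNA and say nothing of the proteins, which the pathway degrades.

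**Figure D4:**
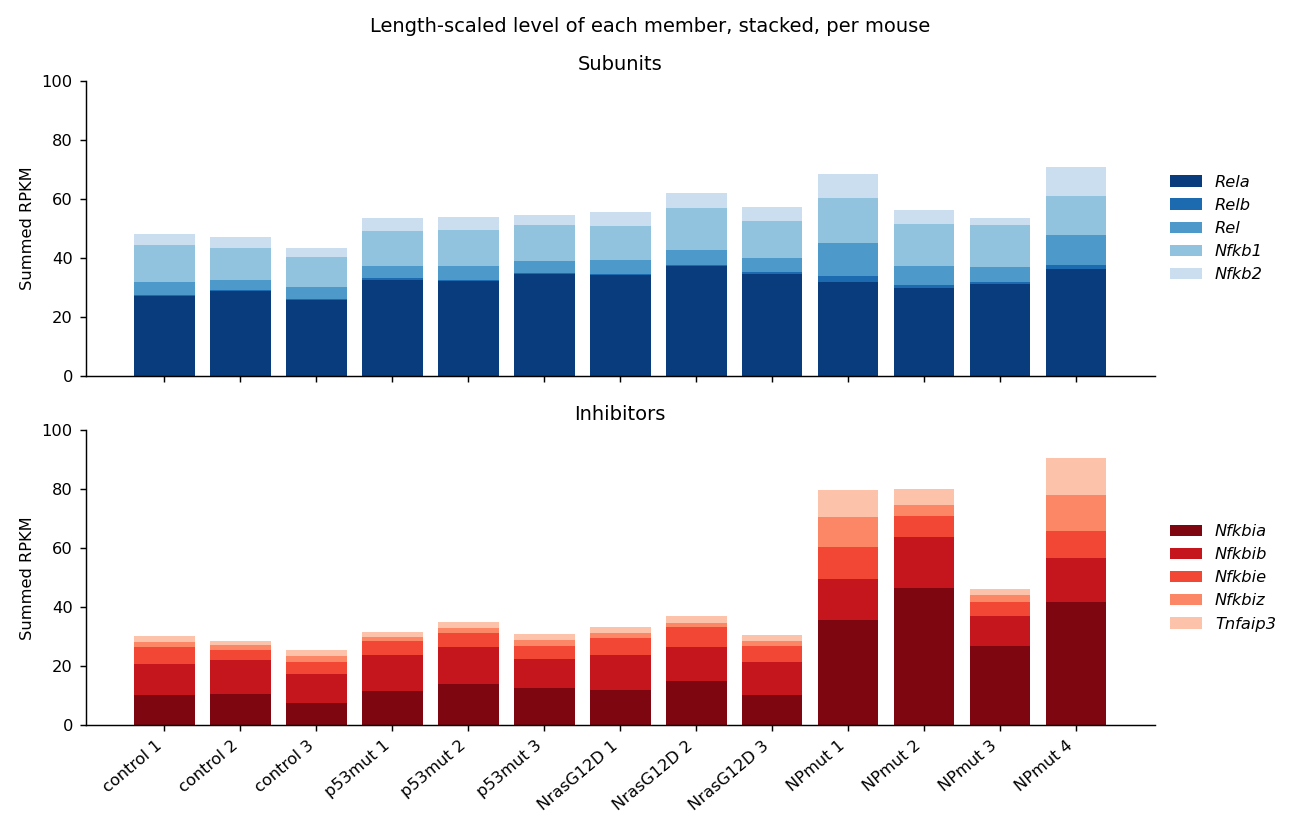
Stacked RPKM (y axis, from 0) of the 5 subunits (top) and the 5 inhibitors or atypical regulators (bottom) in each of the 13 mice (x axis). The inhibitor stack of the NPmut mice reaches 46.2 to 90.8 RPKM against 25.5 to 37.1 in the other mice. Nfkbia is its largest part in each NPmut mouse, and Nfkbiz and Tnfaip3 are larger in mice 1 and 4 than in mice 2 and 3.

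The genes closest to a member were sought for Tnfaip3, Nfkbia and Nfkbiz, the members with the largest log2 fold changes among those called, by the root mean square difference of centered log2 CPM over the 13 libraries among 12977 genes. The genes closest to Tnfaip3 were Nfkbid (0.24), Nfkbiz (0.24), Zfp36 (0.31), Klf6 (0.32) and Osm (0.33). The median over all genes was 0.98. A gene at the same level in all libraries would score 0.96, the root mean square of Tnfaip3 about its own mean. Nfkbid encodes another nuclear IκB protein and Zfp36 an RNA-binding protein that destabilizes inflammatory mRNAs. Nfkbid was at 39.1, 28.3, 10.8 and 55.3 CPM in NPmut mice 1 to 4 and 9.30 CPM on average in control. For Nfkbiz the closest were Tnfaip3, Nfkbid, Zfp36, Fosl2 and Egr1 (0.24 to 0.38). For Nfkbia they were other genes, Grasp, Nfil3, Dusp22, Ifi30 and Irf5 (0.25 to 0.29), and Tnfaip3 and Nfkbiz ranked 334 and 328. Irf5, a transcription factor of the inflammatory response, was at 43.7, 63.7, 39.8 and 41.4 CPM in NPmut mice and 10.3 in control, with mouse 3 the lowest NPmut mouse by a small margin.

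Around the 10 members, 82 other genes of the pathway were listed by role, of which 72 passed the filter. In NPmut against control mice 20 of the 72 were called higher and 0 lower, beside 5.38% and 5.54% of all genes, with a median log2 fold change of 0.36. The count was 12, 9 and 8 without control mouse 1, 2 and 3. In NrasG12D against control mice 0 of the 72 were called (10 at an unadjusted p under 0.05, 1 called by DESeq2), and in p53mut mice also 0 (0 and 0).

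Among the ligands, 2 of the 3 tested were called. Tnf, the prototype activator of the pathway, was at 2.701, 3.65 and 2.34 CPM in control and 21.6, 16.6, 5.63 and 17.8 in NPmut mice, without overlap (log2 fold change 2.41 ± 0.38, adjusted p = 0.00136). Il1b, an inflammatory cytokine and target as well as activator, was at 0.621 ± 0.109 CPM in control and at 5.91, 6.87, 0.214 and 4.07 in NPmut mice, with mouse 3 again low (log2 fold change 2.77 ± 0.80, adjusted p = 0.0396). Of 6 receptors tested 3 were called: Il1r1, the signaling receptor for IL-1 (1.12 ± 0.25, adjusted p = 0.0117), Tnfrsf1a, the main TNF receptor (0.61 ± 0.18, adjusted p = 0.037), and Ltbr, a receptor of the noncanonical pathway (0.57 ± 0.13, adjusted p = 0.0134). Il1r1 was highest in NPmut mouse 3, at 51.3 CPM, against 35.7, 21.9 and 29.4 in mice 1, 2 and 4, and the NrasG12D mice, at 27.97 to 29.7, lay within that range.

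Of the 18 adaptors 6 were called higher. They included Card9, a scaffold that links receptors to the kinase complex, and Birc3, a ubiquitin ligase of TNF receptor complexes (log2 fold changes 0.88 ± 0.17 and 0.88 ± 0.14, adjusted p = 0.00491 and 0.00155). All 4 NPmut mice were above all control mice for both. Of the 10 kinases and kinase partners 0 were called (1 at an unadjusted p under 0.05, 0 called by DESeq2), with a median log2 fold change of 0.09. At the 5.38% of all genes called higher, few or no calls would fall on a list of 10, and the difference between roles was not tested. Ikbkb and Chuk, the catalytic subunits of the IκB kinase, had log2 fold changes of 0.26 (adjusted p = 0.135) and 0.03 (adjusted p = 0.893).

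Of 10 other IκB-like and feedback genes 3 were called: Nfkbid (1.84 ± 0.39, adjusted p = 0.01), Zc3h12a, which encodes the mRNA-degrading enzyme Regnase-1 (1.31 ± 0.24, adjusted p = 0.0038), and Tnip1, a partner of A20 (0.38 ± 0.11, adjusted p = 0.0384). Of 25 targets tested 6 were called. Ccnd1, which encodes cyclin D1, rose in all 4 NPmut mice (15.3 ± 1.99 CPM in control, 51.3, 33.7, 72.2 and 35.5 in NPmut mice, adjusted p = 0.00352). It was at 31.8, 52.1 and 33.8 CPM in NrasG12D mice, which overlapped the NPmut mice, and at 12.4 to 23.9 in p53mut mice. The chemokine genes Ccl3 (1.33 ± 0.57 CPM in control, 10.3, 15.9, 1.07 and 17.8 in NPmut mice, adjusted p = 0.0136) and Cxcl2 (0.0759 ± 0.0342 CPM in control, 2.33, 2.39, 0.0 and 2.97 in NPmut mice, adjusted p = 0.0333) did so in mice 1, 2 and 4 and not in mouse 3. Of the 25 targets, 8 had this pattern (3.07% of all genes) and 5 were above all control mice in all 4 NPmut mice (10.4%). The plot by role shows the 72 genes.

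**Figure D5:**
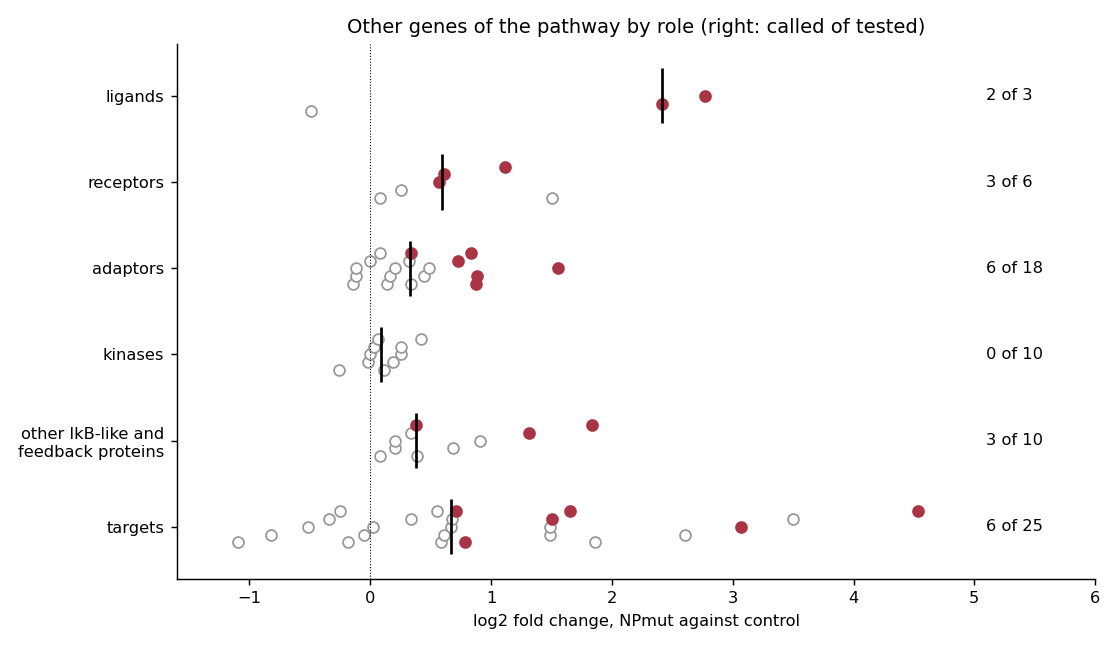
log2 fold change of NPmut against control mice (x axis) of 72 pathway genes in rows by role (vertical shifts within a row have no meaning), filled where the adjusted p was under 0.05, with a line at the median of each role and the number called at the right. All called genes are higher, and 0 of the 10 kinases were called.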

How the data were processed

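The authors sequenced Lin- cKit+ bone marrow cells of 13 mice and deposited raw read counts per gene in a single table. The labels name STAR 2.6.1d, R 3.6.1, DESeq2 1.26.0 and GRCm38.p6 in the submitters' processing notes. The counting program, its strand setting and the annotation release are not given in the sources used here. Libraries were made from total RNA with a stranded kit for small inputs. Of the 54838 identifiers, 54809 matched GENCODE M21, the source of names, lengths and coordinates, and 0 columns were left without a sample.

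Tests used edgeR 4.0.16 in R 4.3.3 (robust quasi-likelihood fit, TMM factors, filterByExpr, a mean for each group, no covariate) with Benjamini-Hochberg adjustment over all genes tested. Log2 CPM used a prior count of 2. Alternatives were DESeq2 1.42.0, relative log expression (RLE) factors, library totals, no filter on low counts, at least 10 counts in every library, only the compared groups, the replicate number as a block, and each mouse left out in turn. The script was tested on simulated data. All members, the 3 largest changes per role of the pathway list among called genes, and the 5 genes closest to each of 3 members were named; Kit, Fos, Csf1r, Cd14, F13a1, Ikbkb and Chuk were picked with their values in view. The value of 1 adaptor that the rule names is not reported here. The members and lists (17 in all) were chosen with earlier results of these data known. Control and p53mut mice with the same number deviated from their group means together (r = 0.166, 0.163 and 0.152), which other pairs of groups did not do in every pair, so a blocked fit of these 6 libraries was run. Each library is 1 mouse. Promoter windows are from RefSeq. At 20 counts in a library, as for Relb, counting error is large, whereas Rela had at least 1309 counts.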

Additional observations from a re-analysis of the deposited data

Results flagged for a closer look

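The change of Nfkbia in NPmut mice differed from the sum of the changes in the single mutants in the main fit. The interaction term of edgeR's quasi-likelihood test was 1.171 on the log2 scale (adjusted p = 0.0464). The call was kept in only 9 of 19 alternatives, with adjusted p up to 0.133. The log2 fold changes it joins were 1.99 for NPmut, 0.39 for NrasG12D and 0.43 for p53mut against the same control mice, all higher than control. NPmut mice differed from the other groups also in the injections and in disease stage, which cannot be told apart from the genotype.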

How the results depend on the processing

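All members kept the sign of their log2 fold change in NPmut against control mice under every alternative. Nfkbia in the 3 comparisons with NPmut, and Rel in NPmut against control, were called in all 20. With library totals the median log2 fold change of all genes moved from 0.01 to -0.11 and the higher share of all calls from 49.3% to 32%, the members' median from 0.99 to 0.87, the members called from 6 to 4 (Relb and Nfkbie were lost) and the pathway genes called from 20 to 16, of which 1 was lower. With only the compared groups in the fit, 2 members were called in NPmut against control, 1 in NrasG12D against control, 1 each in NPmut against NrasG12D and p53mut, and 10 pathway genes. DESeq2 called 1 member in NrasG12D against control, 5 in NPmut against NrasG12D and 2 for the interaction. Leaving out a mouse gave 2 to 8 members in NPmut against control (2 without control mouse 2 or 3), 1 to 5 against NrasG12D, 1 to 7 against p53mut, 0 to 3 for the interaction and 8 to 22 pathway genes. In CPM, without length, the ratio of inhibitors to subunits was 0.277 in control and 0.548 in NPmut mice. The cause of these shifts was not tested.

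Over all genes, calls in NPmut against control were 1944, and 933 with only the compared groups; against NrasG12D 1581 and 637; against p53mut 1771 and 648. For NrasG12D against control there was 1, with 154 in DESeq2, 273 without a filter, 239 with only the compared groups, 50 with the replicate block, 3 with RLE factors and 0 with library totals, and 1642 genes had an unadjusted p under 0.05. For p53mut against control there were 0 (415 at an unadjusted p under 0.05), with 3 in DESeq2, 10 without a filter and 1 with only the compared groups; the blocked fit of 6 libraries called 56, and 0 members. For NrasG12D against p53mut there were 0 (861 unadjusted), with 35, 73, 19 and 7 in DESeq2, without a filter, with only the compared groups and with the block. The interaction had 309, with 914, 933 and 529 in DESeq2, without a filter and with the block. NPmut mouse 4, the highest for Tnfaip3, was the only mouse with its number. The block over 13 libraries therefore gave it a term of its own and in effect left it out of the comparisons. In this block the Tnfaip3 calls in NPmut were lost (log2 fold changes 1.54, 1.29 and 1.51 against control, NrasG12D and p53mut, with adjusted p = 0.0677, 0.116 and 0.0835). Nfkb1 was called with it against control (adjusted p = 0.0340). The numbers did not pair those groups. Few counts limit Relb.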
